A study of Mus musculus with 32 samples.

Results

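The genes described here encode the subunits of the NMDA receptor. The members were chosen by name: Grin1, Grin2a, Grin2b, Grin2c, Grin2d and Grin3a, which are 6 of the 24062 genes counted. Each member was measured in 32 RNA-sequencing libraries from mouse cortex. The animals were adult male mice of the strain Tg(S100a10-EGFP/Rpl10a)ES691Htz, a single bacTRAP founder line in which S100a10 regulatory elements drive an EGFP-tagged ribosomal protein L10a, and all groups carried this transgene. Anti-EGFP purification of ribosomes gave the TRAP fraction, and RNA of the whole cortex before purification gave the input fraction. Every library was made from the cortices of 3 pooled mice, with hippocampi and striata removed. The 4 groups were vehicle-treated group-housed mice (Gh), vehicle-treated mice that were single-housed from weaning (Sh), single-housed mice given fluoxetine at 0.167 g/L in their water over 21 days whose behaviour was labelled normal (Sh + Flx), and single-housed mice with the same fluoxetine treatment whose behaviour was labelled anxious (Sh + Flx anxious). There were 4 libraries per group and fraction.

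NMDA receptors are glutamate-gated cation channels that pass calcium and open when glutamate and a co-agonist, glycine or D-serine, are bound while the membrane is depolarised. The obligatory GluN1 subunit, from Grin1, binds the co-agonist and combines with glutamate-binding GluN2 subunits from Grin2a to Grin2d, or with GluN3 subunits such as that from Grin3a, and the partners set channel kinetics, calcium passage and magnesium block. In adult cortex, Grin2a and Grin2b are the main GluN2 genes of pyramidal neurons, Grin2d is known from interneurons, and Grin2c is known from cerebellar granule cells and, in forebrain, from astrocytes.

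The 6 genes lie on 6 chromosomes, all on the minus strand (GRCm38). Grin1 spans chr2:25291177-25319187, Grin2a chr16:9567901-9996083, Grin2b chr6:135713221-136173615, Grin2c chr11:115249169-115267297, Grin2d chr7:45831883-45871194 and Grin3a chr4:49661611-49846023. RefSeq promoter sequences (GRCm38.p6, from 250 bases before to 50 bases after the start) were matched for 3 members, Grin1, Grin2c and Grin2d. A pair of them is shown, that of the obligatory subunit and that of Grin2c, the member whose TRAP level differed most between groups. The Grin1 window is chr2:25319138-25319437 and the Grin2c window chr11:115267194-115267493, both read 5′ to 3′ on the minus strand, with the GC box GGGCGG in capitals.
Grin1: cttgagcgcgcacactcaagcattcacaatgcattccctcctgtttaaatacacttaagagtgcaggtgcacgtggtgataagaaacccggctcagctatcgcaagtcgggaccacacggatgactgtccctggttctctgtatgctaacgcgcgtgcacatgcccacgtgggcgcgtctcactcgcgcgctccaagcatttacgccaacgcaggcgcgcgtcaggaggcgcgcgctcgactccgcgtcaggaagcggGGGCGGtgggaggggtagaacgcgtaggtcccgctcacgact
Grin2c: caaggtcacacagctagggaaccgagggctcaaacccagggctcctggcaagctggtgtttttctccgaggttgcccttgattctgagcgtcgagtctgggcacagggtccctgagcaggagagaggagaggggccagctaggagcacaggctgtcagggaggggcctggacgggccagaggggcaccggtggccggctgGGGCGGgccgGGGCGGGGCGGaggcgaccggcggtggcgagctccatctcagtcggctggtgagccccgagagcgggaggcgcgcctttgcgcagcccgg
The Grin1 window held 1 GC box and was 60.7% G or C, whereas the Grin2c window held 3 GC boxes, the last pair overlapping by a base, and was 70.0% G or C. Counting both strands, 35.7% of 32851 mouse promoter windows of this length held a GC box. The Grin2d window held 0, with 56.0% G or C. No promoter activity was measured here.

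Counts assigned to genes ranged from 9776244 to 64788703 per TRAP library and from 19265435 to 34515281 per input library. Levels are given as CPM, a gene's counts relative to all counts in genes of its library, after TMM scaling. Replicates 2 and 3 of Gh TRAP differed by little more than sampling noise, which gives a mean chi-square per gene of about 1. Their mean was 1.132 over 14157 genes, against 2.173 to 407.361 in the 47 other replicate pairs. They were therefore summed and counted as 1 sample, Gh TRAP 2+3, which leaves 3 Gh TRAP samples. The pair at 2.173 was Sh TRAP 1 and 4, which were kept as 2 samples although the next lowest pair was at 5.286. They are the only Sh TRAP libraries in every value given without Sh TRAP 2 and 3, so the spread within Sh TRAP is then that of a near-identical pair. Sh TRAP 2 and 3 stood apart: S100a10 was at 19.1 and 11.9 CPM there, against 39.6 to 68.4 CPM in the other TRAP libraries and 5.76 to 11.01 CPM in the inputs. The summed level of 5 nuclear RNAs was 31560 to 53490 CPM in these libraries, against 3876 to 10050 CPM in other TRAP libraries and 38380 to 63380 CPM in the inputs. Results that rest on them are given with and without them. S100a10 itself was higher in TRAP than in input in Gh by 2.60 on the log2 scale, but of 5 layer 5 markers only Rbp4 rose (0.70) and 3 fell, and all 7 markers of meningeal fibroblasts rose, by a median of 5.24, so that TRAP RNA was not that of the labelled layer 5a neurons alone. In bulk RNA, fewer cells of a type and less RNA per cell cannot be told apart.

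Levels were first compared between members, per kilobase of the longest annotated transcript. In whole cortex of Gh mice, Grin1 was at 18.7 ± 1.13 CPM per kb (SD, n = 4), followed by Grin2a at 8.78 ± 0.298, Grin2b at 7.26 ± 0.262 and Grin3a at 4.88 ± 0.532 CPM per kb. Grin2d at 0.719 ± 0.194 CPM per kb and Grin2c at 0.628 ± 0.169 CPM per kb were lowest, and their libraries overlapped. In Gh TRAP the same order held, with Grin1 at 12.9 ± 2.56 CPM per kb (SD, n = 3), Grin2a at 5.69 ± 0.237, Grin2b at 4.67 ± 0.550, Grin3a at 2.85 ± 0.485, Grin2d at 0.584 ± 0.275 and Grin2c at 0.487 ± 0.0843. Grin1, Grin2a, Grin2b and Grin3a thus lay above Grin2c and Grin2d in both fractions. The order was the same in 7 of the 8 groups and fractions, and in Sh TRAP Grin2c and Grin2d changed places, with or without Sh TRAP 2 and 3. Grin2a and Grin2b libraries overlapped in Sh TRAP, Sh + Flx TRAP and both fluoxetine inputs, and so did Grin2b and Grin3a in Sh TRAP.

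The order at the top depended on the length used. Per kilobase of all annotated exons, Grin1 stayed first, but Grin2b came before Grin2a in every group and fraction. Grin2a and Grin2b libraries overlapped with that length in some groups, Gh input among them. Per kilobase of coding sequence, Grin2b was at 39.4 ± 1.42, Grin2a at 31.01 ± 1.05 and Grin1 at 28.4 ± 1.72 CPM per kb in Gh input (SD, n = 4), so the order of these members turned. Grin2b and Grin2a have transcripts of up to 24123 and 15521 bases but coding sequences of 4449 and 4395 bases, whereas Grin1 has 4368 and 2880 bases. Grin3a stayed behind these members, and Grin2c and Grin2d last, with each length. Which transcripts these cells use was not measured. Grin3b, the other GluN3 gene, was at most 0.742 CPM in TRAP and 0.631 CPM in input.

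The plot of all libraries shows the CPM values from which the comparisons below were made.

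**Figure D1:**
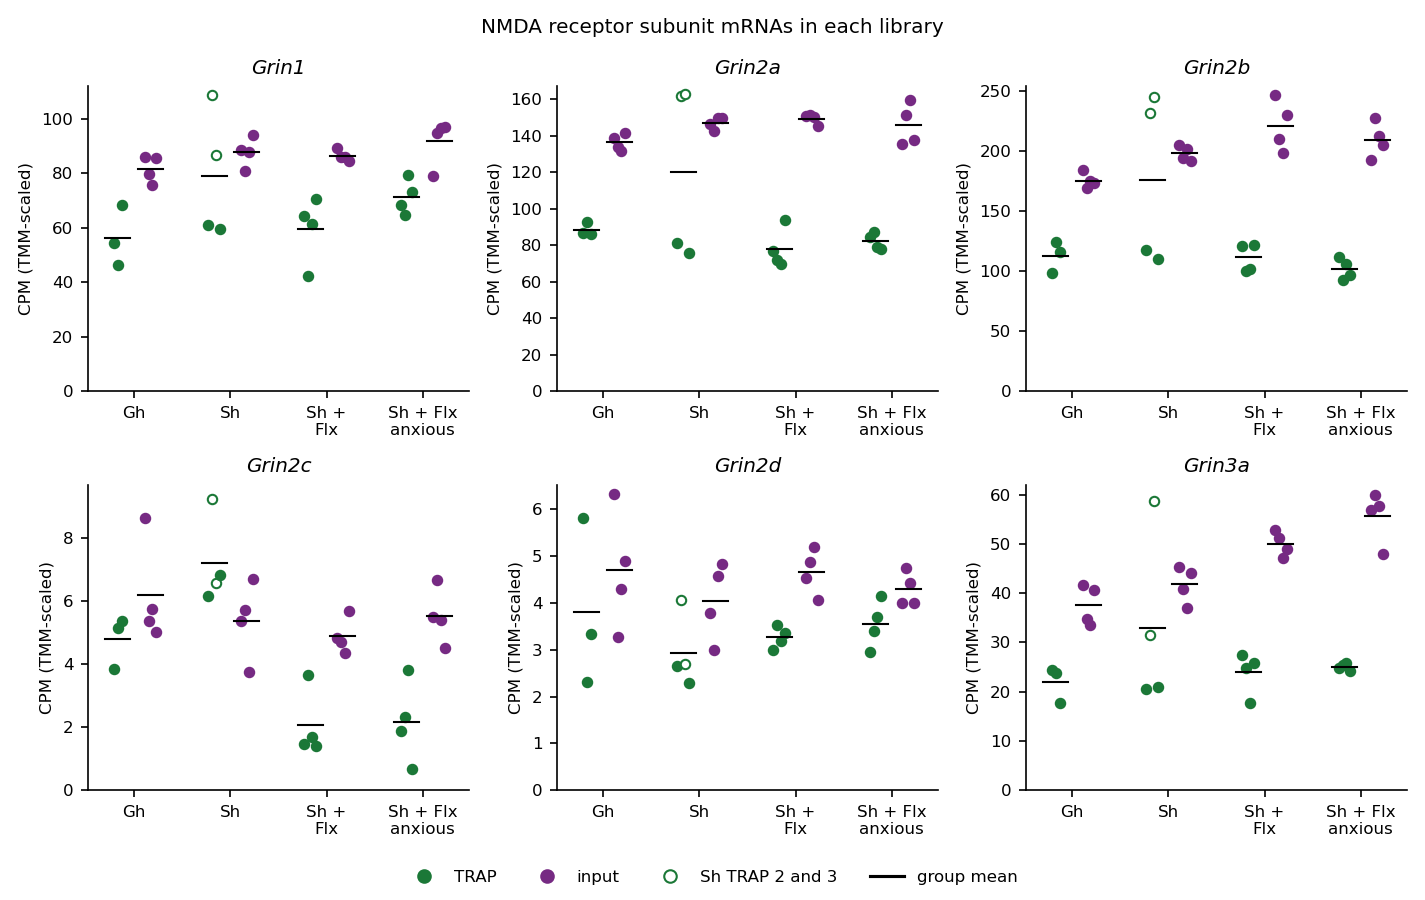
Each point is 1 library, with its TMM-scaled CPM on a linear axis that starts at 0, for the 6 members in the 4 groups. Green points are TRAP, purple points input, open green points Sh TRAP 2 and 3, and black lines group means (n = 3 for Gh TRAP, otherwise 4). Sh TRAP 2 and 3 lie at or above the input level for Grin2a and Grin2b, and all fluoxetine TRAP libraries lie below the Gh and Sh TRAP libraries for Grin2c.

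The first comparison asked whether NMDA receptor mRNAs were enriched in TRAP over whole cortex. They were not: in Gh mice, 4 of the 6 members, Grin1, Grin2a, Grin2b and Grin3a, were lower in TRAP, and Grin2c and Grin2d did not pass the test. Genes called lower made up 21.9% of the 17015 genes tested in that comparison. The median log2 fold change of the members was -0.58, against -0.064 over all genes.

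Grin1, the obligatory subunit, was at 54.4, 46.4 and 68.4 CPM in the 3 Gh TRAP samples and at 85.9, 79.8, 75.6 and 85.6 CPM in the 4 Gh inputs. Every TRAP value was below every input value, and the difference was -0.53 on the log2 scale (SE 0.16, edgeR quasi-likelihood adjusted p = 0.00901). Without Gh TRAP 2+3 it was -0.41 (adjusted p = 0.0776). Part of the Grin1 count is uncertain, since 29.4% of its exon bases are also annotated to genes on the opposite strand, Grin1os and Lrrc26, and the library kit did not mark strand. Grin1os was at 0.0937 to 0.436 CPM in Gh TRAP, 0.488 to 0.893 CPM in fluoxetine TRAP and 0.380 to 1.56 CPM in input. In Sh TRAP 1 and 4 it was at 1.44 and 1.41 CPM, and in Sh TRAP 2 and 3 at 5.27 and 2.95 CPM.

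Grin2a, whose subunit gives receptors of fast decay, was at 86.5, 92.5 and 85.8 CPM in Gh TRAP and at 131.4 to 141.6 CPM in Gh input, with no overlap (log2 fold change -0.63, SE 0.17, adjusted p = 0.00331). Grin2b, whose subunit gives slower receptors and binds CaMKII, was at 98.1, 124.0 and 115.9 CPM in Gh TRAP and at 168.9 to 183.9 CPM in Gh input (-0.64, SE 0.18, adjusted p = 0.00407). Grin3a, whose subunit lowers calcium passage and magnesium block, was at 24.4, 23.8 and 17.7 CPM in Gh TRAP and at 33.5 to 41.6 CPM in Gh input (-0.78, SE 0.22, adjusted p = 0.00498). From input to TRAP, Grin2a fell by 35.2%, Grin2b fell by 35.6% and Grin3a fell by 41.8%.

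The minor GluN2 members behaved less clearly in Gh mice. Grin2c was at 3.84, 5.15 and 5.38 CPM in Gh TRAP and at 5.01 to 8.64 CPM in Gh input, with overlap (-0.36, 95% interval -1.08 to 0.36, adjusted p = 0.441). Grin2d was at 5.81, 2.32 and 3.33 CPM in Gh TRAP and at 3.28 to 6.32 CPM in Gh input (-0.34, 95% interval -0.90 to 0.21, adjusted p = 0.325). The wide spread of Grin2d came with counts of 41 to 246 per TRAP library, and without Gh TRAP 1 it was called lower (-0.74, adjusted p = 0.0389).

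The fluoxetine groups showed the same lower levels in TRAP and added Grin2c. In Sh + Flx, 5 of the 6 members were lower, with 26.9% of all genes called lower: Grin1 by -0.53, Grin2a by -0.94, Grin2b by -0.99, Grin2c by -1.26 (SE 0.34, adjusted p = 0.00206) and Grin3a by -1.07. In Sh + Flx anxious the same 5 members were lower, with 26.8% of all genes called lower: Grin1 by -0.36 (SE 0.15, adjusted p = 0.0430), Grin2a by -0.83, Grin2b by -1.04, Grin2c by -1.34 (SE 0.33, adjusted p = 0.00116) and Grin3a by -1.15. The Grin1 difference in Sh + Flx anxious was at the edge of the test: its call was lost without input 2, 3 or 4 or without TRAP 1, 2 or 4 of that group, with adjusted p between 0.0598 and 0.110. Grin2d did not pass in Sh + Flx (-0.51, adjusted p = 0.0809) or in Sh + Flx anxious (-0.27, adjusted p = 0.372).

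In Sh mice the result rested on Sh TRAP 2 and 3. With all 4 TRAP libraries, 0 of the 6 members were called by edgeR, with 0 at an unadjusted p under 0.05 and 0 by DESeq2, while 18.8% of all genes were called lower. Without Sh TRAP 2 and 3, Grin1 (-0.49), Grin2a (-0.86), Grin2b (-0.75) and Grin3a (-0.96) were called lower (adjusted p = 0.00400, 4.6e-09, 2.73e-07 and 2.23e-06), and 25.3% of all genes were. That fit keeps only the near-identical Sh TRAP 1 and 4, and no alternative merged this pair. If Sh TRAP 1 and 4 are not independent, these p-values are too small. Leaving out Sh TRAP 3 alone gave 3 calls, Grin2a (adjusted p = 0.00906), Grin2b (0.0419) and Grin3a (5.06e-05), and leaving out Sh TRAP 2 alone gave 1, Grin2a (0.0197). Grin2c stood apart in Sh mice, with a positive difference in both fits that did not pass the test (0.42, 95% interval -0.25 to 1.08, and 0.32, 95% interval -0.46 to 1.10).

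Over the 4 groups together, all 6 members were lower in TRAP, as were 37.4% of all genes. The log2 fold changes were -0.40 (SE 0.08) for Grin1, -0.67 (SE 0.08) for Grin2a, -0.71 (SE 0.08) for Grin2b, -0.64 (SE 0.17) for Grin2c, -0.40 (SE 0.13) for Grin2d and -0.84 (SE 0.10) for Grin3a, and without Sh TRAP 2 and 3 they were -0.41, -0.75, -0.79, -0.59, -0.38 and -0.93, all called again.

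**Figure D2:**
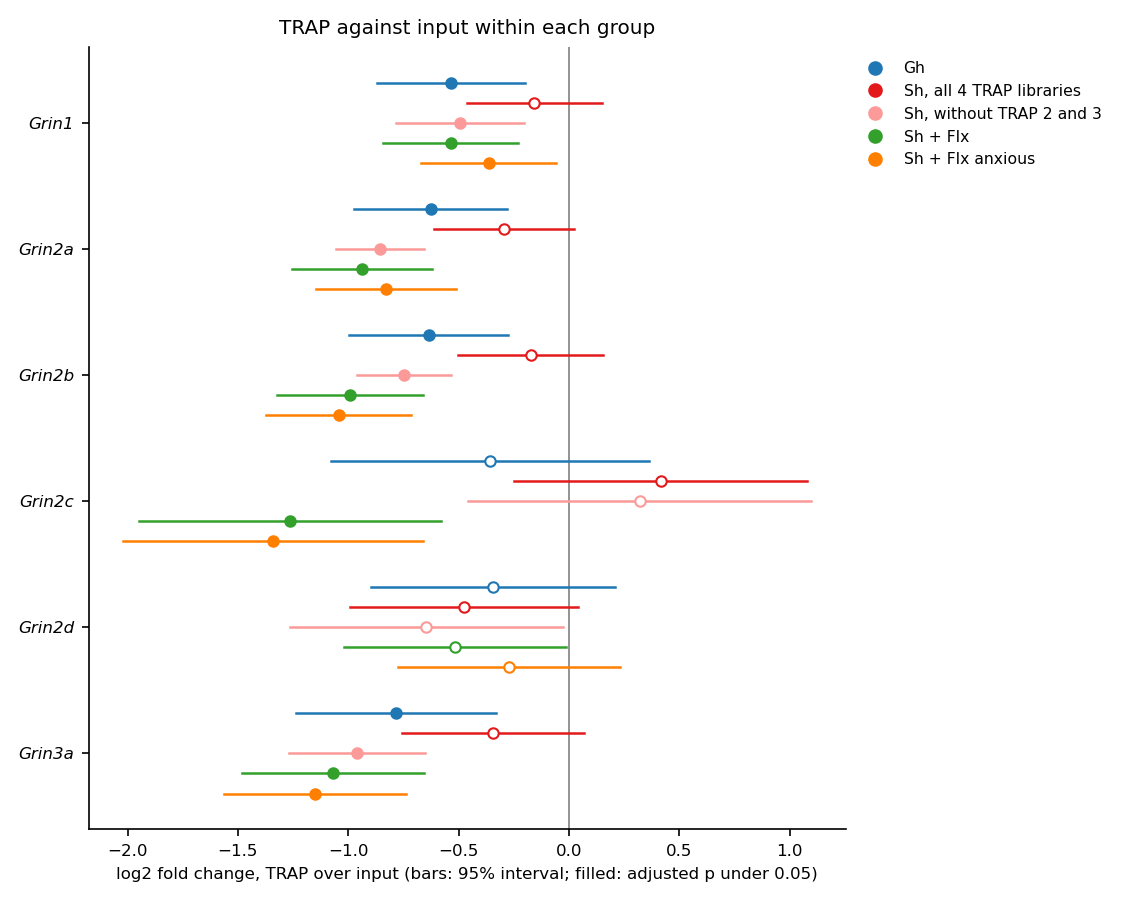
Points are log2 fold changes of TRAP over input for each member, bars their 95% intervals, and filled points those with an edgeR adjusted p under 0.05. Colours mark the group, with Sh shown with all TRAP libraries and without Sh TRAP 2 and 3. Grin1, Grin2a, Grin2b and Grin3a lie below 0 in every group, and the filled Grin2c points are those of the fluoxetine groups, at -1.26 and -1.34.

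These values depend in part on scaling. With library size in place of TMM, the median of all genes in Gh moved from -0.064 to 0.173, the share of called genes that were higher moved from 48.1% to 68.5%, and in the other groups and over all groups it moved from between 46.4% and 53.1% to between 60.4% and 66.5%. All member differences called above kept their sign, but Grin1 lost its call in Gh, Sh + Flx and Sh + Flx anxious (adjusted p = 0.133, 0.0523 and 0.300) and Grin2d over the 4 groups (0.142).

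Partner genes of the receptor were counted beside its subunits, with the same TRAP and input comparison in Gh mice, where the median over all genes was -0.064 and 21.9% of all genes fell and 20.3% rose. Of 15 scaffold genes of the postsynaptic density, 11 fell and 1 rose, with a median of -0.503: Dlg2 (-0.97), which encodes PSD-93, Dlgap1 (-0.84) and Homer2 (-0.60) fell, and Homer3 (2.21) rose. Of 18 kinase and phosphatase genes that act on the receptor, 14 fell and 0 rose (median -0.582), including the calcineurin genes Ppp3r1 (-0.89) and Ppp3ca (-0.74) and the CaMKII gene Camk2d (-0.75).

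Of 11 genes of co-agonist supply, 10 were tested, and 3 fell and 1 rose (median -0.332). Serine racemase Srr (-0.58) and the serine-synthesis genes Psat1 (-0.82) and Phgdh (-1.02) fell, whereas the glycine transporter gene Slc6a9 rose (0.82). Of 13 transport and auxiliary genes, 12 were tested, and 7 fell and 0 rose (median -0.710), among them Neto1 (-1.31), Lin7a (-1.17), Apba1 (-0.92) and Pacsin1 (-0.89). Of 9 coupled enzymes and exchange factors, 6 fell and 1 rose (median -0.553): Nos1ap (-1.16) and the calmodulin gene Calm3 (-0.60) fell, and Kalrn, which encodes an exchange factor, rose (3.06).

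Cell type markers moved in the same comparison. All 5 pan-neuronal markers were lower in Gh TRAP than in input (median -0.601; summed level 15050 to 19310 CPM against 22730 to 25940 CPM, with none of the markers at 0), a median near that of the receptor genes. Of 7 interneuron markers 6 were lower (median -1.26), as were all 6 oligodendrocyte markers (median -1.43), whereas 4 of 5 endothelial and 4 of 5 mural markers were higher. The part of cell make-up in the members' differences was not tested.

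The next comparison asked whether isolation changed the members. In TRAP, 0 of the 6 members were called between Sh and Gh by edgeR, 2 (Grin1 and Grin2b) had an unadjusted p under 0.05, and DESeq2 called 0. Over all genes 0.0% were called. Grin2b was at 117.7, 231.6, 244.4 and 110.0 CPM in Sh TRAP against 98.1, 124.0 and 115.9 CPM in Gh TRAP. Its 2 high values were those of Sh TRAP 2 and 3, and the other 2 lay within the Gh range. Accordingly the Grin2b difference was 0.65 (95% interval 0.14 to 1.15) with all libraries and -0.01 (95% interval -0.29 to 0.28) without these libraries. Grin1, Grin2a and Grin3a moved alike, from 0.48, 0.45 and 0.59 to 0.08, -0.19 and -0.10.

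In Sh TRAP 2 and 3, levels of Grin2a, Grin2b and Grin3a were nearer to those of whole cortex than in the other TRAP samples. Grin1, Grin2c and Grin2d varied. Grin2a was at 161.6 and 162.5 CPM there, against 131.4 to 159.4 CPM over the 16 inputs and 69.7 to 93.7 CPM in the other 13 TRAP samples. Grin3a was at 31.5 and 58.7 CPM, against 33.5 to 59.8 CPM over the inputs and 17.7 to 27.4 CPM in the other TRAP samples. Grin2d was at 4.07 and 2.70 CPM, inside the range of the other TRAP samples (2.29 to 5.81 CPM), against 2.99 to 6.32 CPM over the inputs. Grin1 was at 108.8 and 86.6 CPM and Grin2c at 9.26 and 6.58 CPM. In Sh TRAP 2 both were above every input, which reached 96.9 and 8.64 CPM. The same libraries held nuclear RNAs at input-like levels, as given above, and their part in the members' levels was not tested.

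In whole cortex, 0 of the 6 members were called between Sh and Gh by edgeR (1, Grin2b, at an unadjusted p under 0.05; 0 by DESeq2), with 0.0829% of all genes called. The Grin2b difference was 0.18 (95% interval 0.05 to 0.31, adjusted p = 0.265). The 95% intervals of the other members reached from -0.62 (Grin2d) to 0.34 (Grin3a).

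Fluoxetine was then compared with Sh in TRAP, where Grin2c gave the largest difference among the members. Grin2c was at 1.47, 3.66, 1.68 and 1.41 CPM in Sh + Flx TRAP and at 1.87, 2.31, 3.801 and 0.681 CPM in Sh + Flx anxious TRAP. It was at 6.15, 9.26, 6.58 and 6.83 CPM in Sh TRAP and at 3.84, 5.15 and 5.38 CPM in Gh TRAP. Every fluoxetine TRAP library was below every Gh and Sh TRAP library, although the highest fluoxetine library (3.801 CPM) was close to the lowest Gh library (3.84 CPM). Sh TRAP 3 lay between Sh TRAP 1 and Sh TRAP 4, unlike for Grin2a, Grin2b and Grin3a.

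The log2 fold change of Grin2c was -1.83 (SE 0.43, adjusted p = 0.0253) in Sh + Flx against Sh, a fold of 0.282, where 6.46% of all genes were called in either direction. It was -1.72 (SE 0.43, adjusted p = 0.0204) in Sh + Flx anxious against Sh, where 10.5% were called. These comparisons share the Sh libraries. Grin2c was the only member called in the first, and Grin2b (-0.80, SE 0.22, adjusted p = 0.0294) was called beside it in the second.

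Without Sh TRAP 2 and 3, Grin2c kept its size but not its call: -1.67 (SE 0.49, adjusted p = 0.0744) in Sh + Flx and -1.57 (SE 0.49, adjusted p = 0.0701) in Sh + Flx anxious, with 2.08% and 4.53% of all genes called. Single libraries also decided the call. In Sh + Flx it was lost without Sh TRAP 2 (-1.67, adjusted p = 0.0658) or without Sh + Flx TRAP 1, 3 or 4 (-1.71, -1.74 and -1.67, adjusted p = 0.0664, 0.0763 and 0.0594). In Sh + Flx anxious it was lost without Sh TRAP 2 (-1.58, adjusted p = 0.0597) or without Sh + Flx anxious TRAP 1 or 2 (-1.66 and -1.76, adjusted p = 0.0551 and 0.0535). DESeq2 called Grin2c in both comparisons (adjusted p = 0.00109 and 0.00124).

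Grin2b did not keep its size. Its difference in Sh + Flx anxious against Sh fell to -0.16 (SE 0.13, adjusted p = 0.497) without Sh TRAP 2 and 3, and it was not called without Sh TRAP 2 (-0.63, adjusted p = 0.0944), without Sh TRAP 3 (-0.59, adjusted p = 0.0917), or without any 1 of the Sh + Flx anxious TRAP libraries (adjusted p between 0.0551 and 0.0797). Grin2b was at 92.6 to 111.3 CPM in Sh + Flx anxious TRAP and at 110.0 and 117.7 CPM in Sh TRAP 4 and 1. Grin2a and Grin2b in Sh + Flx against Sh were -0.64 and -0.67 (adjusted p = 0.0757 and 0.0663), and they went to -0.0041 and -0.03 without Sh TRAP 2 and 3. They were called with all libraries by DESeq2, and by edgeR without Sh TRAP 1 (adjusted p = 0.0181 and 0.0155) or without Sh TRAP 4 (0.0144 and 0.0124). In Sh + Flx anxious against Sh, Grin2a was called without Sh TRAP 1 (0.0257) or Sh TRAP 4 (0.0189).

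Grin1, Grin2d and Grin3a were not called in either fluoxetine comparison with Sh. In Sh + Flx their differences were -0.41, 0.15 and -0.48, and without Sh TRAP 2 and 3 they were -0.01 (95% interval -0.38 to 0.36), 0.40 (95% interval -0.40 to 1.19) and 0.21 (95% interval -0.19 to 0.60). In Sh + Flx anxious they were -0.15, 0.29 and -0.40, and without Sh TRAP 2 and 3 they were 0.25 (95% interval -0.12 to 0.63), 0.53 (95% interval -0.27 to 1.33) and 0.28 (95% interval -0.11 to 0.68).

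**Figure D3:**
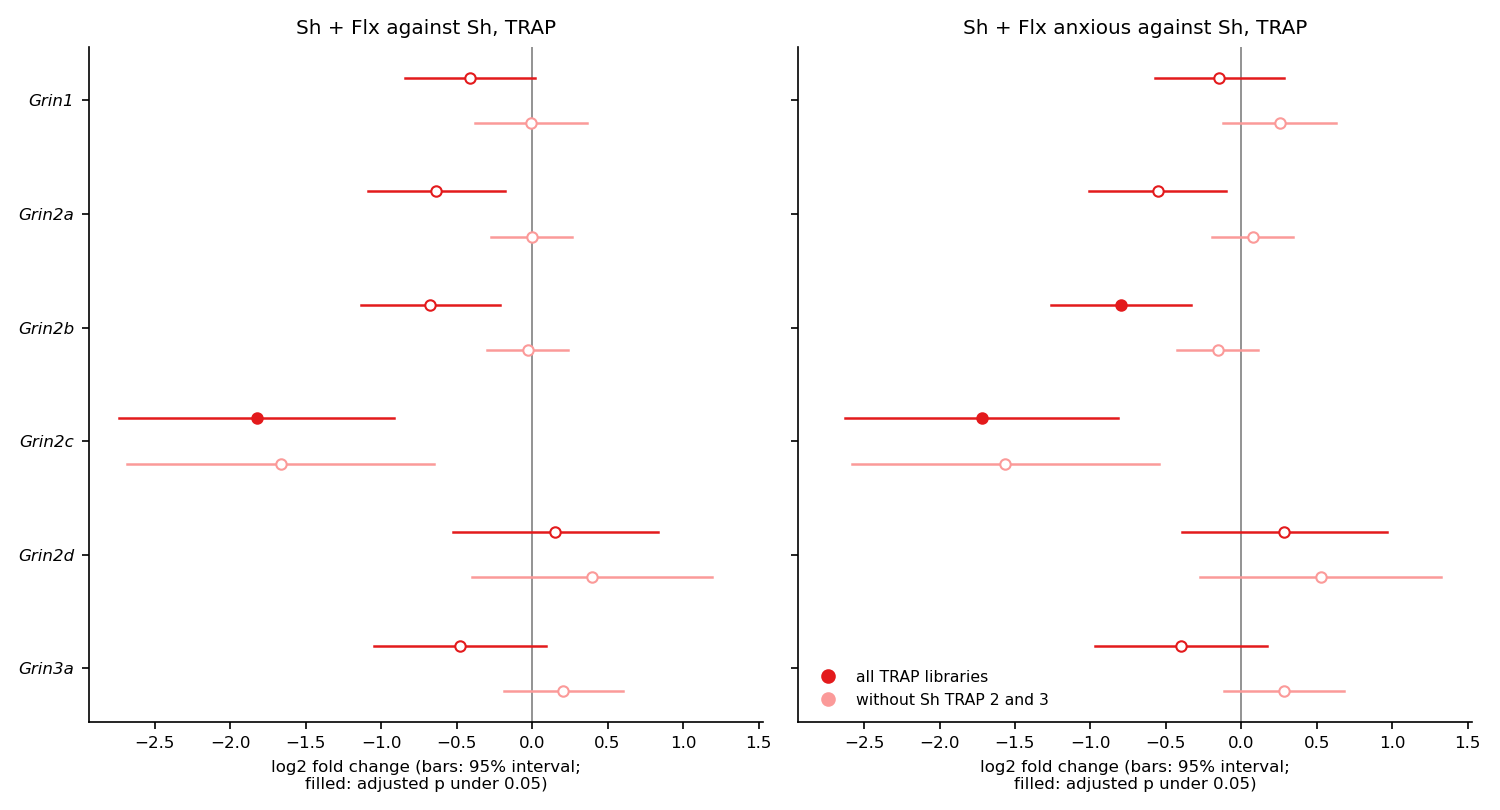
Points are log2 fold changes in TRAP of Sh + Flx against Sh (left) and of Sh + Flx anxious against Sh (right) for each member, with 95% intervals and filled points where the edgeR adjusted p was under 0.05. Dark red uses all TRAP libraries and light red leaves out Sh TRAP 2 and 3. Grin2c stays between -1.57 and -1.83 in all 4 fits, while Grin2a, Grin2b and Grin3a move to between -0.16 and 0.28 without these libraries.

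Against Gh, Grin2c was lower but not called: -1.25 (95% interval -2.20 to -0.30, adjusted p = 0.668) in Sh + Flx, where 0.00597% of all genes were called, and -1.15 (95% interval -2.09 to -0.20, adjusted p = 0.535) in Sh + Flx anxious, where 0.0716% were called. With all libraries no member was called there by edgeR or DESeq2, and Grin2c was the only one at an unadjusted p under 0.05 with edgeR. Without Sh TRAP 2 and 3, which share in the estimate of spread, the adjusted p of Grin2c was 0.222 and 0.192, and no member was called. Between Sh + Flx anxious and Sh + Flx, 0 of the 6 members were called in TRAP by edgeR or DESeq2 (0 at an unadjusted p under 0.05 with edgeR; 0.0% of all genes called), and the Grin2c difference was 0.10 (95% interval -0.79 to 0.99).

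Grin2c was not called between any groups in whole cortex. It was at 4.36 to 5.68 CPM in Sh + Flx input, 4.498 to 6.67 CPM in Sh + Flx anxious input, 3.76 to 6.69 CPM in Sh input and 5.01 to 8.64 CPM in Gh input, with overlap between all groups. The difference from Sh was -0.14 (95% interval -0.54 to 0.26) in Sh + Flx and 0.03 (95% interval -0.37 to 0.42) in Sh + Flx anxious.

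The difference between the TRAP and the input change was tested as an interaction. For Sh + Flx against Sh it was -1.68 for Grin2c (SE 0.47, adjusted p = 0.0448) and -0.82 for Grin2b (SE 0.23, adjusted p = 0.0449), with 2.97% of all genes called. For Sh + Flx anxious against Sh it was -1.76 for Grin2c (SE 0.47, adjusted p = 0.0223) and -0.87 for Grin2b (SE 0.23, adjusted p = 0.0206), with 7.31% called. Without Sh TRAP 2 and 3 the interaction of Grin2c was -1.51 and -1.56 (adjusted p = 0.123 and 0.0750) and that of Grin2b -0.16 and -0.20 (adjusted p = 0.591 and 0.426). In the first comparison, leaving out any 1 of the 8 input libraries of the groups compared also ended both calls. No member was called in the interactions against Gh, where 0.0235% (Sh), 0.0529% (Sh + Flx) and 0.0294% (Sh + Flx anxious) of all genes were called; at an unadjusted p under 0.05 there were 0, 0 and 1 (Grin2c), and DESeq2 called 0. For Sh against Gh, Grin2a had the value 0.33 (95% interval -0.13 to 0.80) with all libraries and -0.31 (95% interval -0.56 to -0.05, adjusted p = 0.249) without Sh TRAP 2 and 3, when again 0 members were called and Grin2a was the 1 at an unadjusted p under 0.05.

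Since Grin2c is known from astrocytes, the 7 astrocyte markers were read in the same libraries. None was at 0. Their summed level was 2121 to 2864 CPM in Sh + Flx TRAP, below the 3066 to 4091 CPM of Sh TRAP (3102 to 3147 CPM in Sh TRAP 1 and 4) with no overlap, which is the direction of Grin2c. It was 1987 to 3134 CPM in Sh + Flx anxious TRAP, which overlapped Sh TRAP, and 2354 to 2518 CPM in Gh TRAP, which overlapped both fluoxetine groups. In Sh + Flx against Sh TRAP, Gfap rose (0.95) and Slc1a2 fell (-0.70) among them, and the other 5 were not called. The summed nuclear RNAs were at 3876 to 6966 CPM in the fluoxetine TRAP libraries and at 7186 to 10050 CPM in Gh TRAP and Sh TRAP 1 and 4, so they separated these libraries as Grin2c did. Sh TRAP 2 and 3 are not among them, and held nuclear RNAs at the input-like levels given above. Grin2c was at 9.26 and 6.58 CPM there, against 6.15 and 6.83 CPM in Sh TRAP 1 and 4. The 6 oligodendrocyte markers summed to 391.9 to 719.8 CPM in the fluoxetine TRAP libraries, below the 739.9 to 1313 CPM of Sh TRAP and overlapping the 683.7 to 695.7 CPM of Gh TRAP. The part of astrocyte, nuclear and oligodendrocyte RNA in the Grin2c level was not tested.

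Whole-cortex RNA of fluoxetine-treated mice showed higher Grin3a and Grin2b than that of Gh mice. The fluoxetine mice were also single-housed, so housing and drug cannot be told apart in that comparison. Against Sh, only Grin3a in Sh + Flx anxious was called. Grin3a was at 52.8, 51.3, 47.1 and 49.0 CPM in Sh + Flx input and at 56.9, 59.8, 57.8 and 48.0 CPM in Sh + Flx anxious input. It was at 41.6, 34.7, 33.5 and 40.7 CPM in Gh input and at 45.2, 40.7, 37.0 and 44.0 CPM in Sh input. All 8 fluoxetine inputs were above all 8 others. Within each input group, replicates 1 and 4 were alike, as were replicates 2 and 3, so the libraries may not be independent samples.

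Against Gh, Grin3a was higher by 0.41 (SE 0.09, adjusted p = 0.00445) in Sh + Flx, where 3.1% of all genes were called higher, and by 0.56 (SE 0.09, adjusted p = 5.19e-05) in Sh + Flx anxious, where 6.21% were. Against Sh it was higher by 0.41 (SE 0.09, adjusted p = 0.00306) in Sh + Flx anxious, where 3.98% of all genes were called higher. Against Sh it did not pass in Sh + Flx (0.25, 95% interval 0.07 to 0.44, adjusted p = 0.156; 2.62% of all genes called in either direction), where edgeR and DESeq2 called 0 members and 2, Grin2b and Grin3a, had an unadjusted p under 0.05 with edgeR. The comparisons with 1 control group share its libraries.

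Grin2b was at 246.2, 209.8, 197.7 and 229.6 CPM in Sh + Flx input and at 192.0, 227.4, 212.3 and 205.1 CPM in Sh + Flx anxious input, against 183.9, 168.9, 174.8 and 173.0 CPM in Gh input. All 8 fluoxetine inputs were above the 4 Gh inputs, with differences of 0.33 (SE 0.06, adjusted p = 0.00127) and 0.26 (SE 0.06, adjusted p = 0.00700). Sh inputs, at 191.8 to 204.9 CPM, overlapped the fluoxetine inputs, and the differences from Sh were 0.15 (adjusted p = 0.285) and 0.07 (adjusted p = 0.622).

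The other 4 members were not called in any input comparison with all libraries. Grin1 in Sh + Flx anxious against Gh was 0.17 (SE 0.07, adjusted p = 0.128), and it was called without Sh + Flx anxious input 1 (0.24, adjusted p = 0.0229), the library with the lowest Grin1 level of its group (79.1 CPM, against 94.97 to 96.9 CPM). Between Sh + Flx anxious and Sh + Flx inputs, 0 members were called by edgeR or DESeq2 and 0 had an unadjusted p under 0.05 with edgeR, with 0.127% of all genes called. The Grin3a difference there was 0.15 (95% interval -0.03 to 0.33).

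**Figure D4:**
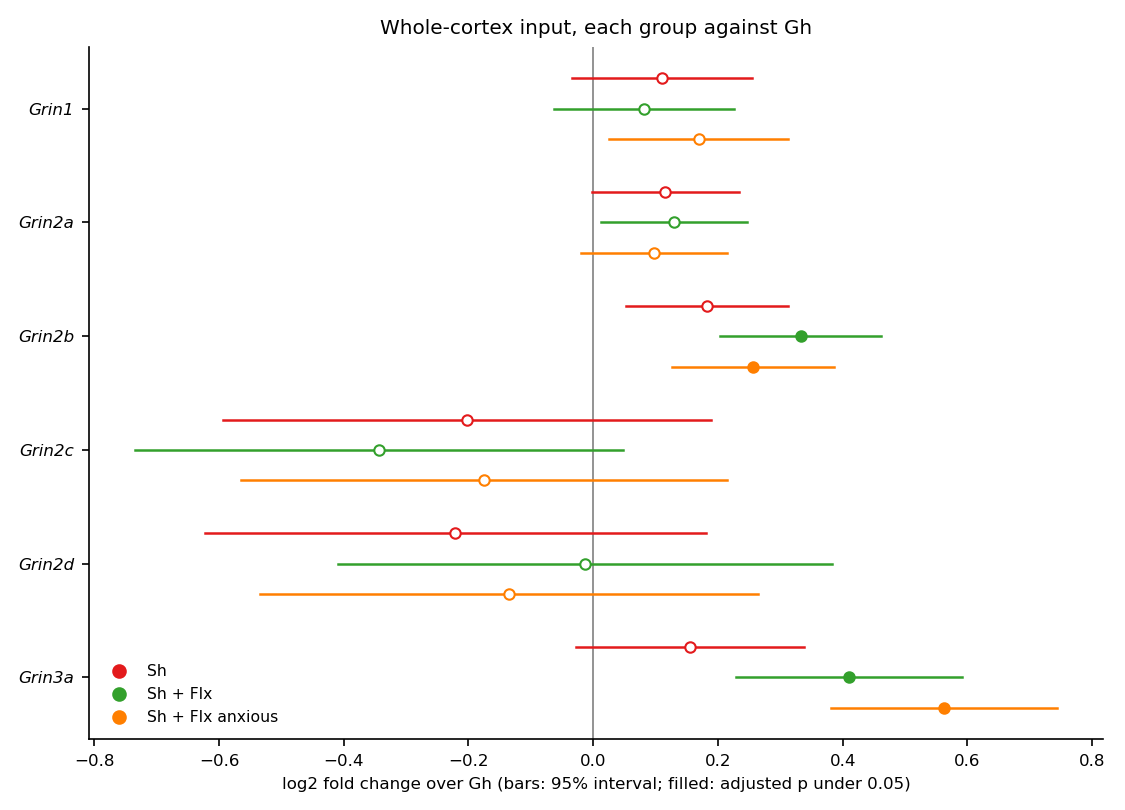
Points are log2 fold changes in whole-cortex input of Sh, Sh + Flx and Sh + Flx anxious over Gh for each member, with 95% intervals and filled points where the edgeR adjusted p was under 0.05. The 3 comparisons share the Gh inputs. Only Grin2b (0.33 and 0.26) and Grin3a (0.41 and 0.56) in the fluoxetine groups are filled, and all intervals of Grin2c and Grin2d include 0.

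The higher Grin3a and Grin2b of the fluoxetine inputs against Gh was not seen in TRAP. In Sh + Flx and Sh + Flx anxious against Gh, the TRAP differences were 0.11 (95% interval -0.50 to 0.73) and 0.19 (95% interval -0.43 to 0.81) for Grin3a, and -0.03 (95% interval -0.52 to 0.47) and -0.15 (95% interval -0.65 to 0.34) for Grin2b. The interactions of TRAP and input did not pass (Grin3a, -0.29 and -0.37, adjusted p = 0.914 and 0.776; Grin2b, -0.36 and -0.41, adjusted p = 0.844 and 0.650), so a difference between fractions was not shown.

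Markers of other cells moved with the fluoxetine inputs. The summed level of 6 oligodendrocyte markers was 985.2 to 1347 CPM in the fluoxetine inputs and 1498 to 1857 CPM in the Gh and Sh inputs, and 4 of 6 in Sh + Flx and 6 of 6 in Sh + Flx anxious were lower than in Gh. The summed level of 7 interneuron markers was 1576 to 1666 CPM against 1297 to 1418 CPM, with Gad2 higher (0.39 and 0.37), Pvalb lower (-0.56 and -0.44) and the other 5 not called against Gh. The summed level of the 5 pan-neuronal markers overlapped (20520 to 25480 CPM against 19060 to 25940 CPM), and no marker of these lists was at 0 in a whole group. The part of cell make-up in the Grin3a and Grin2b differences was not tested.

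Partner genes were counted in the same input comparisons with Gh, where 3.1% of all genes were higher and 2.21% lower in Sh + Flx, and 6.21% were higher and 5.27% lower in Sh + Flx anxious. In Sh + Flx and in Sh + Flx anxious, 1 of 15 scaffold genes was lower and 0 higher (medians -0.035 and -0.079, against -0.006 and -0.007 over all genes), the lower one being Homer2 (-0.20 and -0.22). Of the 18 kinase and phosphatase genes, 1 was higher in each, Camk2d (0.29 and 0.33), and 2 and 3 were lower. Of the 9 co-agonist genes tested, 2 were lower in each, the serine-synthesis genes Psat1 (-0.33 and -0.47) and Phgdh (-0.49 and -0.70), and 1 was higher in each.

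Of the 12 transport and auxiliary genes tested, 1 was higher and 1 lower in Sh + Flx, and 2 were higher and 0 lower in Sh + Flx anxious. Of the 9 coupled enzymes and exchange factors, 1 was higher and 2 were lower in each, and the higher one was Nos1 (0.81 and 1.01), which encodes the nitric oxide synthase tied to the receptor through PSD-95. Nos1 was named after its values were seen, and it is also among the somatostatin interneuron markers, of which it alone of 4 was called. In TRAP, Dlgap1 (-0.94 and -0.89) and Homer2 (-0.83 and -0.79) were among 3 and 4 of 15 scaffold genes lower in Sh + Flx and Sh + Flx anxious than in Sh, where 3.81% and 6.14% of all genes were lower. The scaffold counts were 2 and 2 without Sh TRAP 2 and 3, with 0.912% and 1.89% of all genes lower.

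The balance of Grin2a to Grin2b was compared as the log2 ratio of their CPM values, by exact two-sided permutation tests over samples in 16 pairs of groups. The log2 ratio was -0.35 ± 0.14 in Gh TRAP (SD, n = 3), -0.55 ± 0.03 in Sh TRAP, -0.52 ± 0.12 in Sh + Flx TRAP and -0.30 ± 0.15 in Sh + Flx anxious TRAP (SD, n = 4). In input it was -0.36 ± 0.06 in Gh, -0.43 ± 0.05 in Sh, -0.56 ± 0.15 in Sh + Flx and -0.52 ± 0.08 in Sh + Flx anxious (SD, n = 4). Grin2b counts thus exceeded Grin2a counts in every library.

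No pair passed after adjustment over the 16 pairs. In 4 pairs the libraries did not overlap, and the exact permutation p was then 0.0286, the smallest the design allows (Benjamini-Hochberg adjusted p = 0.114). These were Sh TRAP against Sh input (-0.12), Sh TRAP against Gh TRAP (-0.20), Sh + Flx anxious TRAP against Sh TRAP (0.24) and Sh + Flx anxious input against Gh input (-0.16). The first 3 were -0.11, -0.19 and 0.23 without Sh TRAP 2 and 3, with exact permutation p = 0.0667, 0.300 and 0.133, and with 2 Sh TRAP libraries these tests cannot go below 0.0667, 0.10 and 0.0667. The spread between Sh TRAP libraries was small for this ratio also with Sh TRAP 2 and 3 (-0.52 and -0.59, against -0.54 in both Sh TRAP 1 and Sh TRAP 4).

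Genes most like each member were ranked by Pearson's r of log2 CPM. Over the 13 TRAP samples without Sh TRAP 2 and 3, with 14057 genes compared, the nearest to Grin2c were Cyp4a12a (0.947), Sox13 (0.938) and Paqr6 (0.903), to Grin1 Shisa4 (0.901), Lrrc8a (0.875) and Slitrk1 (0.875), and to Grin3a Adpgk (0.895), Gad2 (0.872) and Mas1 (0.844). The nearest to Grin2a were Zbtb11 (0.876), Cacnb2 (0.874) and Samd12 (0.873), to Grin2b B3gat3 (0.918) and Setd1b (0.892), and to Grin2d Fbxo17 (0.886), Zfp583 (0.870) and Ahcy (0.868). Among the members themselves the TRAP values ranged from -0.613 between Grin2b and Grin2d to 0.367 between Grin2a and Grin2b. Points share library, depth and group, and these values are descriptions.

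Over the 16 inputs, with 13749 genes compared, the members resembled each other more: r was 0.723 between Grin2b and Grin3a, 0.683 between Grin1 and Grin2a and 0.662 between Grin2a and Grin2b, while Grin2c stood apart (-0.191 to 0.049 with Grin1, Grin2a, Grin2b and Grin3a). The genes nearest to Grin3a were Sec61a2 (0.957), Pcnx (0.955) and Chgb (0.947), to Grin2b Fam171a1 (0.880), Slc41a2 (0.877) and Kcna1 (0.874), to Grin1 Ifnar1 (0.866), Grina (0.862) and Plxna1 (0.858), and to Grin2a Cntnap5a (0.858), Gas2l3 (0.853) and Ggt7 (0.841). Those nearest to Grin2c were Slc20a2 (0.775), Cenpe (0.756) and Eno4 (0.742) and to Grin2d Lmf1 (0.822), Ttc7b (0.776) and Dlg5 (0.773).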

How the data were processed

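Per the labels and the study's methods, the authors made cDNA with the Ovation RNA-Seq System V2 and libraries with the TruSeq RNA Sample Preparation Kit v2, which do not mark strand, sequenced them as read pairs and aligned them to mm10 with TopHat2 2.0.11 and UCSC gene models; the submitters' processing notes also name edgeR 3.8.6, Cufflinks 2.2.1 and DESeq2. The sources used here do not name the program that counted reads, or whether it used strand. The authors deposited raw read counts per gene, 1 file per library. The 5 rows that name no gene were left out; reads outside features were 25.2% to 39.8% of each TRAP library, 50.3% and 58.6% in Sh TRAP 2 and 3, and 45.1% to 55.2% of each input. Series tables of the authors' mean FPKM values and of their own comparisons (fold changes and p-values) were not used.

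Counts were tested with edgeR 4.0.16 (R 4.3.3): TMM scaling, filterByExpr, quasi-likelihood tests and Benjamini-Hochberg adjustment over all genes kept, with a threshold of 0.05. TRAP groups (16754 genes, 15 samples), input groups (15690 genes, 16 samples) and both fractions together (17015 genes, 31 samples) were fitted separately, without a replicate term. The fit was checked on simulated counts of TRAP Sh against Gh, drawn as independent libraries. The simulation held no outlying or near-identical libraries, so it does not cover their effect on the calls. Intervals are 95%. Coordinates, lengths and promoters are from RefSeq (GRCm38.p6). The Grin2a to Grin2b ratio was compared by exact permutation tests.

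Alternatives were RLE scaling, library size alone, no filter on low counts, DESeq2 1.42.0, only the groups compared, each library left out, Sh TRAP 2 and 3 left out, Gh TRAP 2 and 3 kept separate, and blocks for replicate number or for the set of replicates 1 and 4 or 2 and 3. Library size alone and coding length were chosen after seeing the data. The members and gene lists were chosen with earlier results of these data known. Named were all 6 members in every group, Grin3b and Grin1os, up to 4 genes per partner list with the smallest p in TRAP against input in Gh, and the 3 genes most like each member (mean of at least 1 CPM, passing over names that start with Gm and a digit or end in Rik); a few genes this rule names are not reported here. The study's methods call the 4 samples per condition biological replicates, each of 3 pooled mice, so p-values measure the spread between pools if these are independent. Within each input group, however, replicates 1 and 4 were more alike than the mixed pairs, as were replicates 2 and 3. In Sh + Flx input their mean chi-squares per gene were 5.286 and 5.443, against 13.531 to 16.149 in the mixed pairs. The same pairs were also the most alike in Gh, Sh and Sh + Flx TRAP. In Sh + Flx TRAP their values were 35.083 and 23.542, against 37.343 to 101.552 in the mixed pairs. Sh + Flx anxious TRAP differed, since replicates 1 and 4 (46.341) were less alike than replicates 1 and 2 (37.639). If such libraries are not independent, the input and TRAP p-values are too small. The block for the set of replicates fits a shift common to all groups, so it cannot settle this. Depth gave 37 to 276 counts per library for Grin2c and 41 to 246 for Grin2d.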

Additional observations from a re-analysis of the deposited data

Results flagged for a closer look

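In groups of 4, 2 single libraries stood apart from the rest of their group by Dixon's test at 95%, among 49 groups tested, of which chance flags about 1 in 20. Grin1 was at 79.12 CPM in Sh + Flx anxious input 1, against 94.97 to 96.9 CPM in the other 3 inputs of that group. Grin2c was at 3.661 CPM in Sh + Flx TRAP 2, against 1.407 to 1.684 CPM in the other 3.

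The change from Sh differed between TRAP and input for Grin2b and Grin2c, by an edgeR test of the difference itself. In Sh + Flx the TRAP change minus the input change was -0.82 for Grin2b (adjusted p = 0.0449) and -1.68 for Grin2c (adjusted p = 0.0448). In Sh + Flx anxious it was -0.87 for Grin2b (adjusted p = 0.0206) and -1.76 for Grin2c (adjusted p = 0.0223). Without Sh TRAP 2 and 3, the libraries with low S100a10 and input-like nuclear RNA, these values were -0.16 and -1.51 in Sh + Flx and -0.20 and -1.56 in Sh + Flx anxious, and none was called. The part of these libraries' make-up in the Grin2b and Grin2c values was not tested.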

How the results depend on the processing

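Of 2502 log2 fold changes of members under alternatives, 2376 kept their side of the threshold and either their direction or, where not called, stayed within their SE of the value with all libraries. A call was lost in 74 and gained in 26, and 26 values without a call changed sign by more than their SE. No called value changed sign. The higher Grin2b and Grin3a in fluoxetine inputs (against Gh, and Grin3a in Sh + Flx anxious against Sh) held under every alternative and left-out library, with adjusted p up to 0.0393. None of these alternatives merged the input libraries that were alike within a group.

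Without Sh TRAP 2 and 3, the number of members called was 4 instead of 0 in TRAP against input in Sh, and 0 in TRAP of Sh + Flx against Sh (1 with all libraries) and of Sh + Flx anxious against Sh (2), and 0 instead of 2 in both interactions with Sh. With only the groups compared in the fit, these TRAP and interaction counts were also 0; the cause was not tested. DESeq2 called 3 in Sh + Flx against Sh. In the interaction for Sh + Flx, library size alone gave 0, the block for the set of replicates gave 1 and the replicate block gave 1. With 1 library left out at a time, counts ranged from 0 to 3 in TRAP against input in Sh, from 0 to 3 in Sh + Flx against Sh, from 0 to 3 in Sh + Flx anxious against Sh (3 without Sh TRAP 1 or 4), and from 0 to 4 in each interaction; in the interactions, leaving out Sh TRAP 1 or 4 gave 4 and leaving out Sh TRAP 2 gave 0.

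Same-numbered libraries of different groups did not deviate together (correlations -0.14 to 0.13 in TRAP and -0.06 to 0.07 in input). Nor did the TRAP and input libraries of the same group and number (-0.02 to 0.04). The numbers were therefore not taken to pair them. The replicate block otherwise changed 1 call, Grin1 in TRAP against input in Sh + Flx anxious (-0.36, adjusted p = 0.0503). Grin1 in that comparison also lost its call with RLE scaling (adjusted p = 0.0936) and DESeq2 (0.0914). Per-kilobase levels moved by the fixed ratio of the lengths used. Intervals between TRAP groups were widest for Grin2c and Grin2d, the members with the lowest counts, but also spanned over 1 log2 unit for members with more counts, such as Grin3a; the part of depth was not tested.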
